A study of Mus musculus with 6 samples.

Results

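The 10 genes described here take fatty acids into the muscle fibre and through mitochondrial oxidation, and they were measured in the soleus of Mustn1 HET and WT mice: Cd36, Fabp3, Cpt1b, Cpt2, Acadm, Acadl, Acadvl, Hadha, Hadhb and Pdk4. They were chosen by gene symbol in the deposited normalized table and joined to the raw counts by Ensembl identifier. All 10 were found among the 51912 genes of the count table, and all 10 passed the filter on low counts that left 14696 genes to test. The HET mice were heterozygous for a KO-first Mustn1 allele, in which an inserted cassette with a splice acceptor is meant to trap the transcript, and the WT mice were littermates without it. Each genotype had 3 mice, all 8 weeks old, of strain C57BL6/N and labelled male, and each mouse gave 1 poly(A)-selected library. The allele was not restricted to muscle, so the comparison is of whole-body heterozygotes that keep 1 intact copy, and the study describes the trap as leaky under some conditions, so that the trapped copy can still be expressed.

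Long-chain fatty acids enter the fibre with the help of CD36 and are carried in the cytosol by the binding protein FABP3. Their acyl-CoA esters cross into the mitochondrion by the carnitine shuttle, where CPT1B on the outer membrane makes acylcarnitine and CPT2 on the inner membrane turns it back to acyl-CoA. Beta-oxidation then repeats a cycle that opens with an acyl-CoA dehydrogenase of long or medium chain range and, for long chains, continues on the trifunctional protein built from HADHA and HADHB. PDK4 phosphorylates and inhibits pyruvate dehydrogenase, which turns fuel use from glucose to fatty acids, and its mRNA is known to rise with fasting. The soleus is a slow, oxidative muscle that relies on this pathway, and many of these genes are targets of the PPAR and ERR nuclear receptors.

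A few stretches of sequence show where these genes sit and what their upstream regions hold. Hadha and Hadhb lie head to head on chromosome 5 and are transcribed away from each other, so a single short gap between their annotated starts serves as the upstream region of both subunits of 1 enzyme. It is printed here on the plus strand, from RefSeq on GRCm38.p6, with GC boxes (GGGCGG, searched on both strands) in capitals; the gap is 85 bases long, 69.4% G or C, and holds 2 of them.
Hadha-Hadhb gap, chr5:30155163-30155247: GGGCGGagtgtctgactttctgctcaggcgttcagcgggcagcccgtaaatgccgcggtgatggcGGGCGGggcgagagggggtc
The nuclear receptor half-site AGGTCA, searched on both strands in the 250 bases before each RefSeq start, was found for 3 of the 9 members with an entry, against 14.0% of 32851 promoters. These 3 are shown because the half-site is the unit of PPAR and ERR elements, each as 30 bases on the minus strand, the strand of all 3 genes, with the half-site or its reverse complement in capitals.
Cd36, chr5:17836107-17836136: ctctgcactttaTGACCTgagattttcagg
Acadm, chr3:153944864-153944893: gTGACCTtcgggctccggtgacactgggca
Acadvl, chr11:70015498-70015527: atggatcaccctAGGTCAggtagaatacag
The Cd36 stretch lies in an intron of Cd36 as the count table annotates it, before a RefSeq start inside the gene, and the other two lie upstream of their genes. Pdk4, the member whose mRNA varied most between mice, held neither motif in the 219 bases before its annotated start, printed on its minus strand.
Pdk4 upstream, chr6:5496310-5496528: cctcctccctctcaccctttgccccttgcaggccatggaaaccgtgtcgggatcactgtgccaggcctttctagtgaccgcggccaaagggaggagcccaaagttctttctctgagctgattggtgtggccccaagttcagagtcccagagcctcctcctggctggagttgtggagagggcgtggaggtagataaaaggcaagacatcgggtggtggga
GC boxes were present for 5 of the 9 (Acadl, Cpt2, Cd36, Hadha and Hadhb) against 32.7% of all promoters. Hadha and Hadhb share the gap printed above with its 2 boxes, so they are not separate cases in this count. Direct repeats of 2 half-sites, AGGTCA then any 1 base then AGGTCA, stood in 11 promoters, none of them a member's. These matches are descriptions of letters, and no binding was measured.

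Libraries held between 26790075 and 50368796 reads on genes. Mustn1 stood at 12.6, 16.8 and 13.1 normalized counts (CPM, reads on the gene relative to all reads on genes of the library, scaled by TMM) in HET mice 1, 2 and 3 and at 23.1, 29.0 and 30.5 in WT mice, and the difference passed the test (log2 fold change −0.96 ± 0.15 SE, adjusted p = 0.045 by edgeR). All 6 libraries went against the label of male mice, with 3858 to 9154 reads on Xist and 0 to 12 reads summed over the Y-linked genes Ddx3y, Kdm5d, Uty and Eif2s3y. The defining mRNAs of slow fibres were present in every library, Myh7 between 13642 and 14766 CPM. Because whole muscle was sequenced, fewer cells of a type and less RNA per cell cannot be told apart.

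Between HET and WT soleus, none of the 10 fatty acid genes differed past the threshold of an adjusted p of 0.05 in edgeR's quasi-likelihood test, and none reached an unadjusted p of 0.05. Over all tested genes the same rules called 0.150% and 7.76%. DESeq2 and limma-voom also called 0 members at an adjusted p of 0.05, and none at an unadjusted p of 0.05, where adjusted calls over all genes were 1.18% of 17801 genes by DESeq2 and 0.0885% of 14696 by limma-voom. HET and WT values overlapped for all 10 members, where 13.6% of tested genes had genotypes that did not overlap. Fitted differences were small and 9 of 10 lay below 0, with a median log2 fold change of −0.08, beside 54.4% of all tested genes below 0 and a median of −0.02. That count rested on single mice, since 3 of 10 lay below 0 without HET mouse 3, 5 of 10 without WT mouse 2, and all 10 without HET mouse 2. The p-values set the difference between genotypes against the spread between mice within a genotype, as the fit estimates it from these 6 mice.

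**Figure D1:**
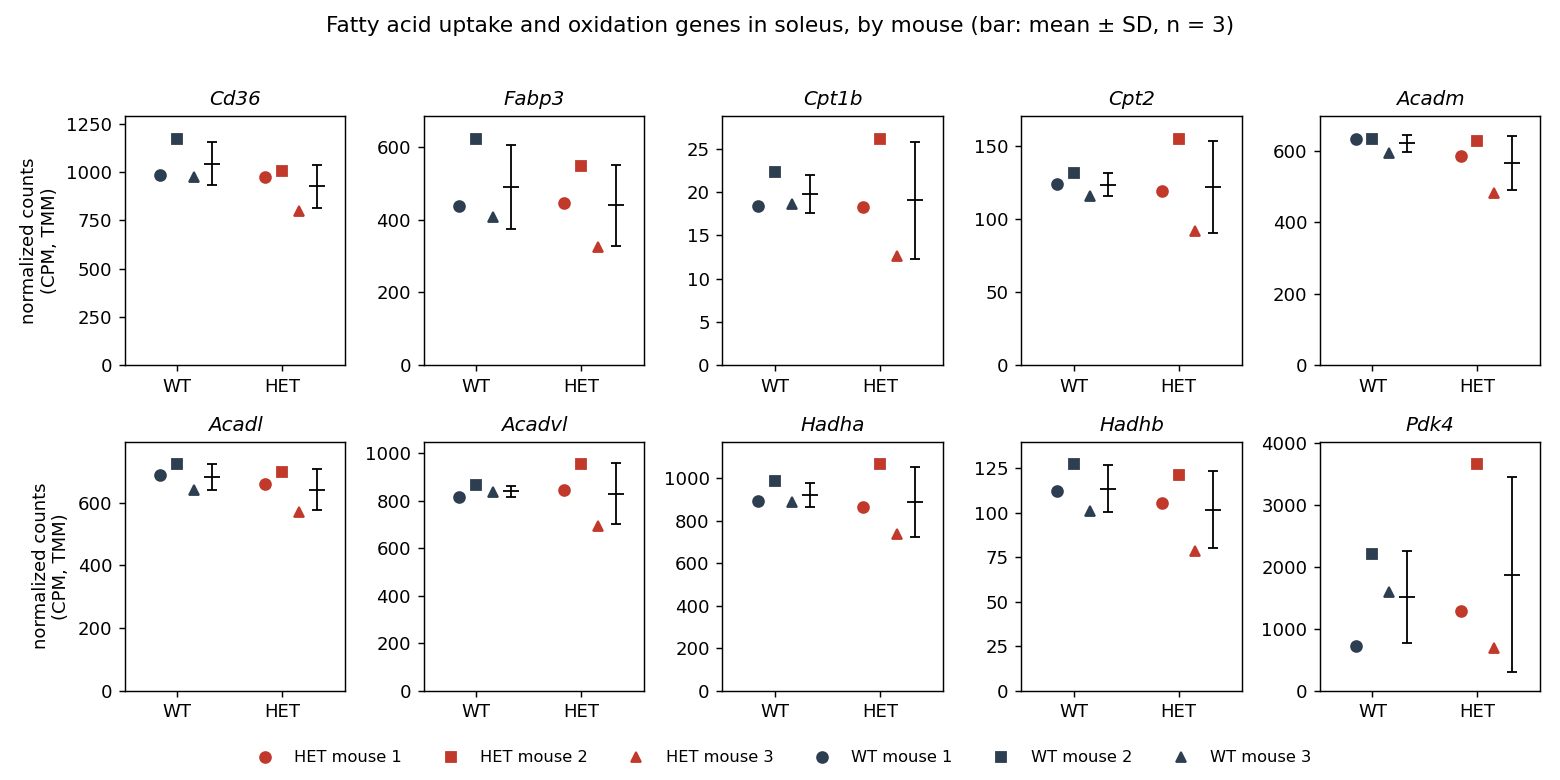
Normalized counts (CPM, TMM-scaled, axis from 0) of the 10 genes in each of 3 WT (dark) and 3 HET (red) mice; symbols give the mouse number and black bars the mean ± SD. The genotypes overlap in all 10 panels, HET mouse 3 (red triangle) is the lowest point in each, and Pdk4 spans from 682 to 3661 CPM.

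Fatty acid entry came first in the order of the pathway. Cd36, the membrane fatty acid translocase (chromosome 5, 17781690 to 17888801, minus strand), stood at 975, 1007 and 801 CPM in HET mice 1, 2 and 3 and at 984, 1174 and 976 CPM in WT mice 1, 2 and 3. HET mouse 3 was low and WT mouse 2 was high, and the remaining 4 mice lay close together across genotypes. The means were 928 ± 111 in HET and 1045 ± 112 in WT (SD, n = 3 each), a log2 fold change of −0.17 with a 95% interval of −0.42 to 0.08 (edgeR adjusted p = 0.833). Fabp3, the heart-type cytosolic fatty acid binding protein (chromosome 4, 130308595 to 130315463, plus strand), gave 447, 549 and 324 CPM in HET and 439, 624 and 409 CPM in WT. Mouse 2 was the highest of both genotypes and mouse 3 the lowest, numbers that do not mark shared litters in the labels. Its fold change was −0.16 on the log2 scale (95% interval −0.67 to 0.35, edgeR adjusted p = 0.935), so a 0.630-fold to 1.28-fold level in HET was within the interval.

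For the carnitine shuttle, Cpt1b, the muscle-type carnitine palmitoyltransferase of the outer membrane (chromosome 15, 89416405 to 89425863, minus strand), was counted at 18.3, 26.2 and 12.6 CPM in HET and 18.5, 22.4 and 18.6 CPM in WT. The HET mice bracketed the WT mice on both sides. Its log2 fold change was −0.06 (95% interval −0.59 to 0.47, edgeR adjusted p = 0.978), from 552 to 919 reads per library. Cpt2, the inner-membrane transferase (chromosome 4, 107903981 to 107923610, minus strand), had 120, 155 and 92.3 CPM in HET and 124, 132 and 116 CPM in WT. Here too the 3 WT mice lay inside the HET range, with SDs of 31.6 in HET and 7.99 in WT. The log2 fold change was −0.02 (95% interval −0.39 to 0.35, edgeR adjusted p = 0.991).

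By the ratio of the highest to the lowest mouse, the 3 acyl-CoA dehydrogenases were the steadiest of the members, at 1.27 for Acadl, 1.32 for Acadm and 1.37 for Acadvl. Acadm, the medium-chain enzyme (chromosome 3, 153922357 to 153944632, minus strand), measured 586, 628 and 481 CPM in HET and 634, 634 and 594 CPM in WT. Acadl, the long-chain enzyme (chromosome 1, 66830839 to 66863277, minus strand), measured 660, 698 and 570 CPM in HET and 689, 723 and 640 CPM in WT. Acadvl, the very-long-chain enzyme of the inner membrane (chromosome 11, 70010183 to 70015411, minus strand), measured 843, 953 and 694 CPM in HET and 817, 866 and 835 CPM in WT. In each of the 3 genes HET mouse 3 was below all WT mice and HET mouse 2 was above at least 1 of them. Acadm had a log2 fold change of −0.13 (95% interval −0.37 to 0.10, edgeR adjusted p = 0.871). For Acadl it was −0.09 (95% interval −0.31 to 0.13, edgeR adjusted p = 0.912), which spans a 0.807-fold to 1.09-fold level, the narrowest interval among the members. Acadvl came to −0.02 (95% interval −0.27 to 0.24, edgeR adjusted p = 0.988).

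Both subunits of the trifunctional protein were followed together. Hadha, which carries the hydratase and long-chain hydroxyacyl-CoA dehydrogenase activities (chromosome 5, 30118304 to 30155162, minus strand), gave 863, 1066 and 737 CPM in HET and 894, 987 and 888 CPM in WT. Hadhb, the thiolase subunit (chromosome 5, 30155248 to 30184593, plus strand), gave 106, 121 and 78.6 CPM in HET and 112, 127 and 101 CPM in WT. In HET mouse 3 both were at their lowest. Hadha differed by −0.05 on the log2 scale (95% interval −0.34 to 0.23, edgeR adjusted p = 0.966) and Hadhb by −0.16 (95% interval −0.50 to 0.18, edgeR adjusted p = 0.893). The ratio of Hadha to Hadhb counts was 8.16, 8.79 and 9.37 in HET and 7.96, 7.76 and 8.78 in WT, thus overlapping between genotypes. Its log2 was 0.10 higher in HET, with p = 0.20 in a two-sided exact permutation test over 3 against 3 mice, a design that cannot go below 0.10.

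Pdk4, the pyruvate dehydrogenase kinase induced with fatty acid use (chromosome 6, 5483351 to 5496309, minus strand), stood apart from the other members in its spread. It was at 1285, 3661 and 682 CPM in HET mice 1, 2 and 3 and at 727, 2216 and 1592 CPM in WT mice 1, 2 and 3. Both genotypes held mice with low and with high Pdk4, and the highest mouse had 5.37 times the level of the lowest. The pooled SD of log2 CPM within genotypes was 1.04, at percentile 99.3 of all tested genes, while the other 9 members lay between percentiles 28.4 and 83.5. Its log2 fold change was 0.31 with a 95% interval of −1.78 to 2.40 (edgeR adjusted p = 0.970), so the interval held HET levels from 0.291-fold to 5.29-fold of WT. Without HET mouse 2 the fitted log2 fold change turned to −0.61 (edgeR adjusted p = 0.847), and without WT mouse 1 to −0.02.

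**Figure D2:**
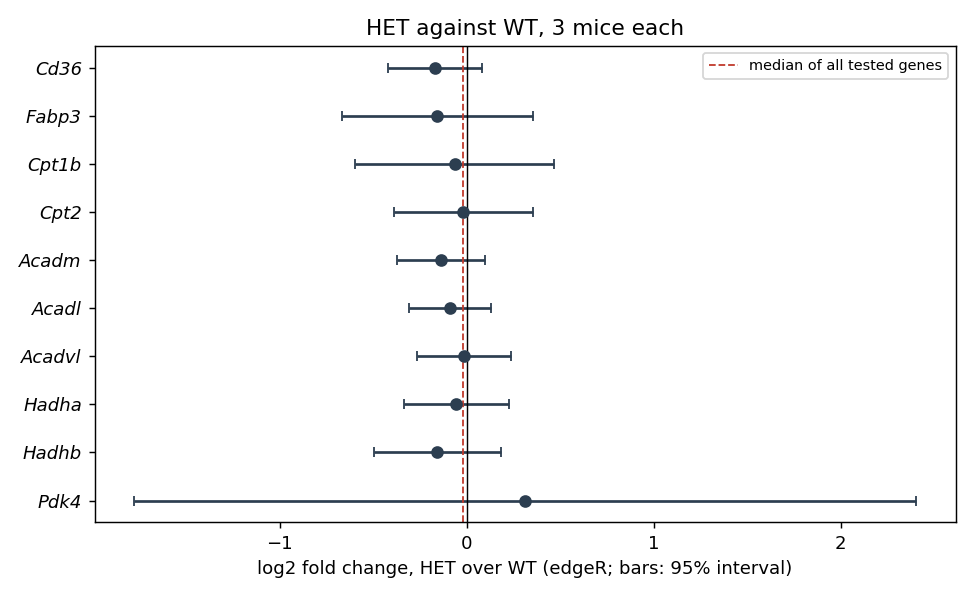
Log2 fold change of HET over WT (horizontal axis) for each member from the edgeR fit, with 95% intervals as bars; the dashed line marks the median of all tested genes, −0.02. All 10 intervals cross 0, the narrowest for Acadl (−0.31 to 0.13) and the widest for Pdk4 (−1.78 to 2.40).

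Levels were compared between genes per kb of annotated exon. In CPM per kb, averaged over the 6 mice, Fabp3 was at 565, Pdk4 at 482, Acadl at 331, Acadvl at 311, Cd36 at 275, Acadm at 151, Hadha at 104, Cpt2 at 51.5, Hadhb at 16.3 and Cpt1b at 5.76. With this length, the ranges over mice of neighbours in this order overlapped from Fabp3 down to Cd36 and were apart from Cd36 downwards. Pdk4, whose range ran from 194 to 1043, was above Acadl in 4 of 6 mice.

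How many reads could be counted differed among the members, which bears on these levels. Of Cpt1b's 3372 exonic bases, 2744 (81.4%) were shared on the same strand with the annotated exons of Chkb, the choline kinase gene next to it, and a read on 2 genes was left out by the authors' counting. Only 199 of 2846 windows of 50 bases, the read length, in the Cpt1b principal transcript belonged to Cpt1b alone. Of Hadhb's 1999 windows, 1247 (62.4%) also occurred in the transcripts Gm13910 and Gm9108 elsewhere, and reads that map to several places were left out too. Fabp3 shared 29.2% of its windows with Fabp3-ps1, Acadm 4.10% and Pdk4 1.43% with other transcripts, and Cd36, Cpt2, Acadl, Acadvl and Hadha shared none. Annotated exons beyond the principal transcript lower a level per annotated kb. Hadha had 8730 exonic bases against 4017 in its principal transcript, Hadhb 6595 against 2048 and Acadm 3913 against 2047.

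Set per kb of windows that could be counted, Cpt1b came to 97.7 CPM and Hadhb to 143, with Cpt2 last at 53.0. These levels divide all reads of a gene by the windows of its principal transcript alone. Reads on exons outside that transcript therefore raise them. Cpt1b had 628 exonic bases not shared with Chkb but only 199 such windows, so its place relative to Cpt2 depends on the length used. Hadha then stood at 228, and its ratio to Hadhb lay between 1.47 and 1.78, where per annotated kb it lay between 5.86 and 7.08. Fabp3 at 849 and Pdk4 at 500 kept the first places under both lengths. Acadvl at 394 then stood above Acadl at 355. Acadm at 309 (251 to 331 over the mice) and Cd36 at 294 (239 to 350) overlapped, where per annotated kb they were apart. The comparison of genotypes uses the same gene in each library and is not scaled by length.

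**Figure D3:**
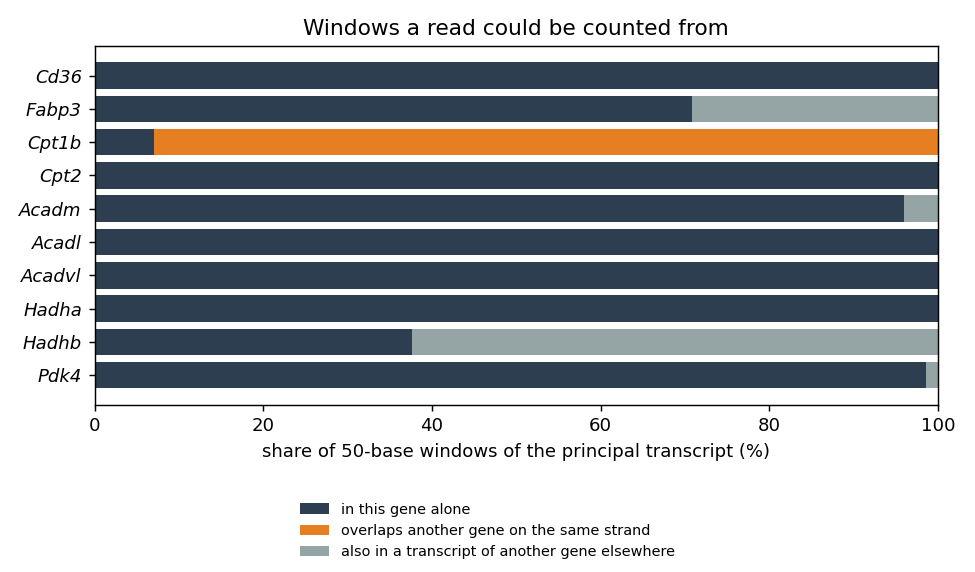
Share (%) of the 50-base windows of each member's principal transcript that occur in that gene alone (dark), overlap an exon of another gene on the same strand (orange) or also occur in a transcript of another gene elsewhere (grey). Cpt1b is nearly all orange, and 62.4% of Hadhb is grey.

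Related genes that are not members were mostly at lower levels per kb of annotated exon. Cpt1a, the isoform of liver and many other tissues, was at 3.61 CPM per kb and Cpt1c, the neuronal isoform, at 0.311, and the counted level of Cpt1b was itself held down by the overlap with Chkb. Fabp4, a binding protein of adipocytes and capillary endothelium, was at 54.7 and Fabp5 at 1.63. Pdk2, the broadly expressed kinase, was at 154, Pdk1 at 34.9 and Pdk3 at 0.921, so Pdk4 had the highest mean of the 4 kinases. The ranges over mice of Pdk4 and Pdk2 did not overlap, 194 to 1043 against 132 to 180. Among acyl-CoA dehydrogenases, short-chain Acads was at 54.0, Acad11 at 7.65, Acad9 at 4.38 and Acad10 at 0.700. None of these 11 genes differed between genotypes past the threshold, with edgeR log2 fold changes from −0.33 for Fabp5 (adjusted p = 0.804) to 0.51 for Cpt1c (adjusted p = 0.767).

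**Figure D4:**
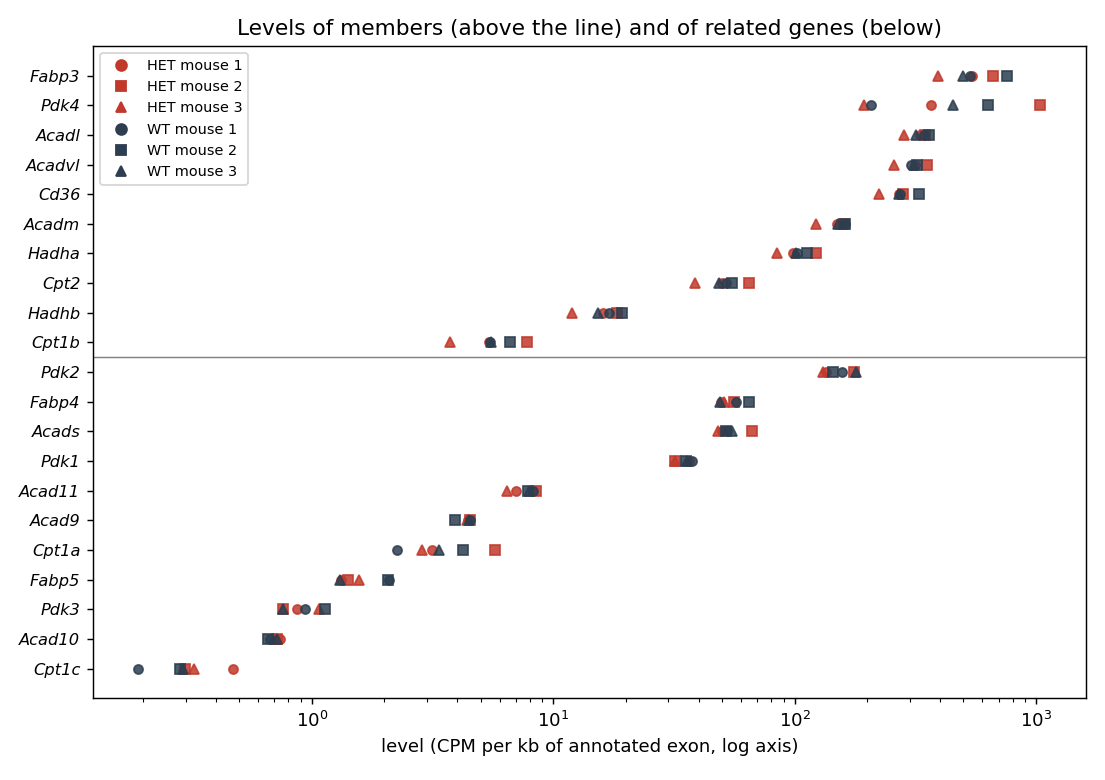
Levels in CPM per kb of annotated exon (log axis) of the 10 members, above the line, and of 11 related genes, below it, with 1 point per mouse (red HET, dark WT; the symbol gives the mouse number). Fabp3 and Pdk4 lead, Pdk4 has the widest spread of the members, and Cpt1c at 0.311 is the lowest.

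Differences between mice ran in the same direction across the members. HET mouse 3 was the lowest of the 6 mice in all 10 members, in 47 of 111 other tested genes of the pathway (42.3%) and in 21.3% of all tested genes. HET mouse 2 was the highest in 5 members, WT mouse 2 in 4 and WT mouse 1 in 1. Each of the 45 pairs of members had a positive Pearson r over the 6 mice, from 0.564 to 0.995 with a median of 0.886. These points share their libraries, and the same mouse was at the low end of every pair. Depth in HET mouse 3 was 42014866 reads on genes, and its TMM factor of 1.05 was the highest of the 6; whether these bear on its low values was not tested.

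Genes outside the members with the most similar course over the 6 mice were ranked by Pearson r of log2 CPM with the mean z-score of the members. The closest of 14686 was Slc25a20, the carnitine-acylcarnitine carrier that links CPT1B to CPT2, with r = 0.995. Its values were 136, 154 and 105 CPM in HET and 135, 153 and 133 CPM in WT, overlapping between genotypes (edgeR log2 fold change −0.10, adjusted p = 0.933). The next were D330023K18Rik with r = 0.994, Atp5e with r = 0.992 and Uqcr10 with r = 0.991. In all, 83 genes had an r above 0.95 and 17 lay as far on the negative side.

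Pdk4 ordered the mice as follows: HET mouse 2, WT mouse 2, WT mouse 3, HET mouse 1, WT mouse 1 and HET mouse 3, from high to low. Exactly this order was found in 0 of the other 9 members, in 7 of the 111 other tested pathway genes (6.31%) and in 0.340% of all other tested genes. The 7, named after their values were seen, were Acot2, a mitochondrial acyl-CoA thioesterase, Acsl1, which activates fatty acids, Esrra, the receptor ERR alpha, Hsd17b4, a peroxisomal oxidation enzyme, Mlycd, which breaks down malonyl-CoA, Plin5, a lipid droplet coat protein, and Ucp3, a mitochondrial carrier of muscle. Ucp3 stood at 56.0, 150 and 17.3 CPM in HET and 30.7, 92.0 and 77.9 CPM in WT. Its highest mouse had 8.64 times the level of the lowest, and its genotypes overlapped (edgeR log2 fold change 0.14, adjusted p = 0.988). Acot2 stood at 22.4, 62.2 and 14.2 CPM in HET and 16.6, 35.8 and 27.6 CPM in WT. Esrra spanned less, from 132 to 192 CPM.

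Beyond the members, 10 further PPAR-responsive genes of muscle were listed, of which 9 were tested and 8 lay above 0, with a median log2 fold change of 0.16 and 0 past the threshold. Angptl4, a secreted inhibitor of lipoprotein lipase, had the highest value, at 7.43, 54.2 and 2.64 CPM in HET and 3.65, 15.6 and 4.17 CPM in WT. It spread over 20.5-fold between mice within overlapping genotypes (log2 fold change 1.46, 95% interval −2.23 to 5.14, edgeR adjusted p = 0.899). HET mouse 2 was the highest mouse for Ucp2, Ucp3, Angptl4, Acot1, Acot2, Plin2 and Plin5. No fasting state, time of collection or circulating fatty acid level was used here, and their part in this spread was not tested.

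**Figure D5:**
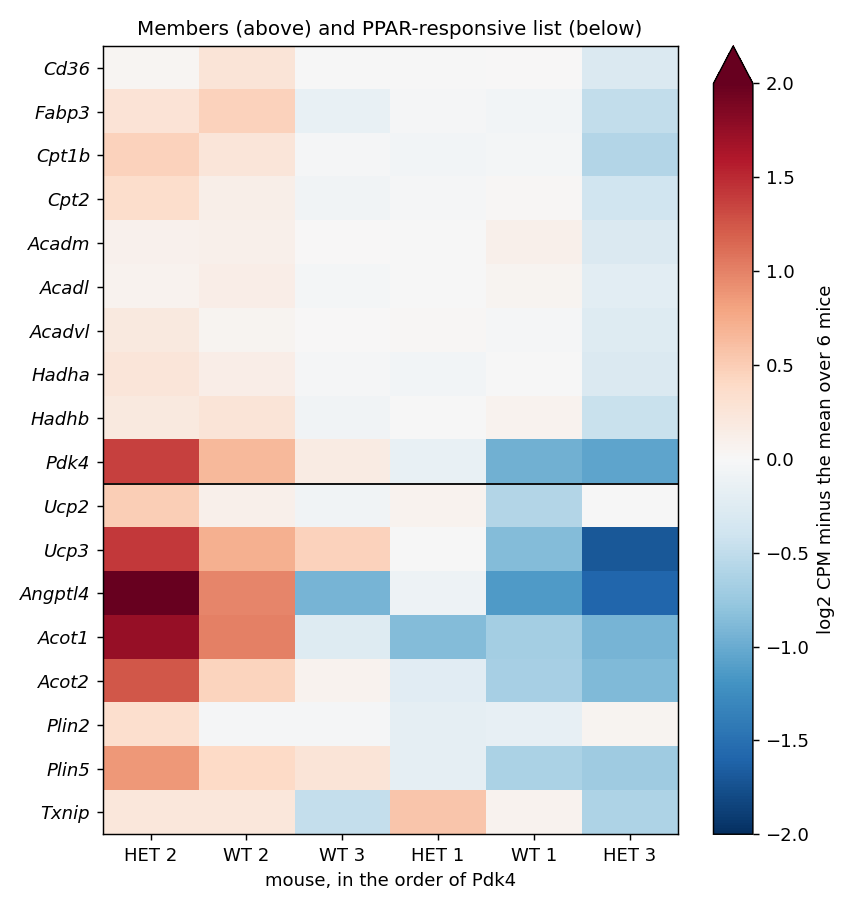
Log2 CPM minus its mean over the 6 mice (colour, white at 0; Angptl4 in HET mouse 2 at 2.77 exceeds the scale) for the members, above the line, and 8 PPAR-responsive genes, below it, with mice in the order of Pdk4. Pdk4, Ucp3, Angptl4, Acot1, Acot2 and Plin5 run from high in HET mouse 2 to low in HET mouse 3, and the other 9 members differ less between these 2 mice, most for Cpt1b, from 0.47 to −0.59.

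The wider pathway was read from the same fit. Of 121 other listed genes 120 were matched and 111 were tested, and edgeR called 0 of them, as did DESeq2 and limma-voom. Their median log2 fold change was −0.05, with 70 of 111 below 0. Unadjusted p-values under 0.05 were found for 4 of 111 (3.60%) against 7.76% of all tested genes, and 11 (9.91%) had genotypes that did not overlap against 13.6%.

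The 4 genes with an unadjusted p under 0.05 were Lpl, Mpc1, Acaca and Bdh1, of which Lpl and Acaca were named after their values were seen. Lpl, the lipase that frees fatty acids from lipoproteins at the capillary wall, was at 2638, 2769 and 2598 CPM in HET and 3341, 3417 and 2928 CPM in WT. All HET mice were below all WT mice, with a log2 fold change of −0.28 (95% interval −0.48 to −0.08, edgeR adjusted p = 0.382). Mpc1, a subunit of the mitochondrial pyruvate carrier, was at 7.34, 5.78 and 6.20 CPM in HET and 8.16, 8.80 and 9.30 CPM in WT, again without overlap (log2 fold change −0.44, 95% interval −0.76 to −0.13, edgeR adjusted p = 0.365). Higher in all HET mice were Acaca, which makes malonyl-CoA (0.30, edgeR adjusted p = 0.624), and Bdh1, a ketone body dehydrogenase (0.22, edgeR adjusted p = 0.622). Acat1, the thiolase of ketone body use, was lower in all HET mice (−0.18, edgeR adjusted p = 0.699).

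By role, none of the lists held a called gene. Among 15 tested genes of lipolysis, transport, binding and activation, 10 lay below 0, from Fabp5 at −0.33 to Slc27a4, a fatty acid transport protein, at 0.28. The carnitine supply and malonyl-CoA list had 3 of 8 below 0, with Slc25a20 lowest and Cpt1c highest. In this list 3 of 8 genes (37.5%) did not overlap, all higher in HET, against 13.6% of tested genes in either direction. These were Cpt1c, Acaca and Slc22a5, the last 2 named after their values were seen. Other beta-oxidation enzymes and electron transfer flavoprotein genes had 14 of 17 below 0 with a median log2 fold change of −0.11, from Eci1, an enoyl-CoA isomerase, at −0.22 to Acad10 at 0.06. HET mouse 3 was low there as well, with a summed 2615 CPM against 3152 to 3376 CPM in the other 5 mice. Peroxisomal oxidation genes had 13 of 15 below 0 and a median of −0.05, between Acox2 at −0.48, counted at no more than 0.870 CPM, and Acox3 at 0.02.

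Pyruvate dehydrogenase, its other kinases and phosphatases and the pyruvate carrier had 12 of 13 below 0 with a median log2 fold change of −0.11, from Mpc1 to the phosphatase Pdp2 at 0.24. The summed level of this list was 3602 to 3801 CPM in HET and 3883 to 4057 CPM in WT, without overlap, and no single gene of it passed the test. Singly, 3 of the 13 genes (23.1%) did not overlap, all lower in HET, against 13.6% of tested genes in either direction. These were Mpc1, Pdha1 and Pdhb, the last 2 named after their values were seen. Pdha1 weighs heavily in the sum, with means of 1306 CPM in HET and 1418 CPM in WT. Regulators, including the PPARs and PGC-1 coactivators, had 9 of 16 below 0, from Klf15 at −0.25 to Esrrb at 0.17. Ppara, named after its values were seen, was at 28.3, 29.4 and 36.7 CPM in HET and 29.3, 30.8 and 44.2 CPM in WT (edgeR adjusted p = 0.916). Lipid droplet genes had 5 of 14 below 0, between Plin3 at −0.20 and Cidec, an adipocyte droplet protein, at 0.95 (edgeR adjusted p = 0.891). Ketone body genes had 3 of 4 below 0, from Acat1 to Bdh1, and summed to 1625 to 1657 CPM in HET and 1713 to 1847 CPM in WT, without overlap. Acat1, Bdh1 and Oxct1 did not overlap between genotypes, 3 of 4 genes (75.0%) against 13.6% of tested genes, and Bdh1 was the higher one in HET. Oxct1, which activates ketone bodies for use, was named after its values were seen and was the largest part of the sum. It was at 873, 848 and 916 CPM in HET and 1017, 949 and 949 CPM in WT (log2 fold change −0.14, edgeR adjusted p = 0.790).

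Markers of the other cells of the muscle were set beside these values. All 12 macrophage markers lay above 0 and 6 passed the test (C1qa, C1qb, Csf1r, Adgre1, Lyz2 and Ctss), and the list summed to 92.5 to 133 CPM in HET and 52.1 to 57.4 CPM in WT. All 12 fibroblast markers lay above 0 and 1 passed the test (Pi16), with sums of 2681 to 3789 CPM in HET and 1282 to 2072 CPM in WT. All 8 tenocyte markers lay above 0, none past the test, with sums of 372 to 664 CPM in HET and 120 to 300 CPM in WT. HET mouse 3, lowest in the members, had the highest macrophage and fibroblast sums of the 6 mice. HET mouse 2, highest in 5 members, had the highest tenocyte sum (664 CPM) and the next highest fibroblast sum (3450 CPM). Its macrophage sum (92.5 CPM) was the lowest of the HET mice. The part of these cells in the members' values was not tested.

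Summed fibre, endothelial and adipocyte markers overlapped between the genotypes. The 15 fibre markers had a median log2 fold change of −0.06 with 0 called, and the 7 slow-fibre markers −0.08 with 0 called. Fast-fibre markers had 9 of 10 below 0, a median of −0.17 and 0 called. Of these 10, 3 were lower in all HET mice (30.0%), where 13.6% of tested genes did not overlap in either direction. Myh4, the fastest myosin, named after its values were seen, was uneven at 44.7, 2042 and 167 CPM in HET and 1470, 1774 and 976 CPM in WT. The 12 endothelial markers, which matter here because capillaries also express Cd36 and hold LPL, summed to 722 to 863 CPM in HET and 790 to 948 CPM in WT with 0 called. Adipocyte markers had 9 of 10 above 0, a median log2 fold change of 0.88 and 0 called. Their sums were 332 to 558 CPM in HET and 312 to 371 CPM in WT. Fabp4, the 1 marker below 0, made up a large part of these sums, at 221 to 291 CPM over the mice. Adipoq, named after its values were seen, was at 9.96, 26.1 and 13.1 CPM in HET and 2.44, 2.94 and 14.2 CPM in WT. HET mouse 2, the mouse highest in Pdk4, thus also had the highest Adipoq and Myh4, and the part of either in its Pdk4 level was not tested. Of 4 brown fat markers only Cidea and Dio2 were tested and neither was called, and the list summed to 13.5 to 15.8 CPM in HET and 10.3 to 11.8 CPM in WT, without overlap. Dio2, 1 of the 2 tested, was higher in all HET mice (log2 fold change 0.55, edgeR adjusted p = 0.278), where 13.6% of tested genes did not overlap.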

How the data were processed

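Poly(A) RNA of 6 soleus muscles was sequenced as stranded 50-base single reads. The authors aligned the reads with STAR 2.7.3a to GRCm38.p6 and deposited raw counts per gene from featureCounts 2.0.3, versions taken from the submitters' processing notes. The deposited normalized signal is the raw count over 1 DESeq2 size factor per library (0.773 to 1.42) and served to find members and to recompute 1 ratio. The remaining file holds the authors' DESeq2 comparison of genotypes, with fold changes and p-values, and was not used. No column of values per sample was left unmatched (0).

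Raw counts were analysed in R 4.3.3 with edgeR 4.0.16 (filterByExpr with a minimum count of 10, TMM, robust quasi-likelihood fit on genotype, two-sided, Benjamini-Hochberg over 14696 genes, threshold 0.05), with limma 3.58.1 and DESeq2 1.42.0 as alternatives and Python 3.11.15 for summaries. The edgeR fit was tried on simulated counts for HET against WT (14458 genes tested). It recovered 68 of 100 genes changed by 1 and 90 of 100 changed by 1.5 on the log2 scale. False calls numbered 12 beside 158 true ones, and changes as small as the members' fitted ones were not simulated. Gene names came from GENCODE M21, exon overlap from the count table, shared windows from GENCODE transcripts, not the genome, and upstream sequence from RefSeq. Libraries of 1 genotype differed beyond sampling noise (chi-square per gene 16.1 to 46.8), so none was counted as a repeat. Groups followed the labels. The text names all members, Mustn1, related genes, the 5 genes most like the members over mice and, from each pathway list, called genes and the highest and lowest tested gene. A few genes these rules would name are not reported here. Members and lists were chosen with earlier results of these data known, so counts over them are descriptions. Other scalings, filters, tools, a replicate block and each mouse left out were tried.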

Additional observations from a re-analysis of the deposited data

How the results depend on the processing

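No member and none of the other pathway genes passed the threshold under any of 13 alternatives of the edgeR fit (RLE or upper quartile factors, no filter on low counts, DESeq2, limma-voom, a non-robust fit, a replicate block, and each mouse left out in turn), and the lowest adjusted p of a member in these 130 fits was 0.571. Signs were less stable, with 14 of 130 reversed, 12 of them with a mouse left out. With upper quartile factors Cpt2 and Acadvl turned to 0.0089 and 0.011 on the log2 scale, where the median of all genes moved from −0.02 to 0.01. With a mouse left out, log2 fold changes ran from −0.34 to 0.051 for Fabp3, −0.34 to 0.17 for Cpt1b, −0.21 to 0.15 for Cpt2, −0.11 to 0.10 for Acadvl, −0.19 to 0.067 for Hadha, −0.29 to 0.0028 for Hadhb and −0.61 to 0.71 for Pdk4. Cd36, Acadm and Acadl lay below 0 in all 13. The number of members below 0 ran from 3 (without HET mouse 3) to 10 (without HET mouse 2, or WT mouse 1), and their median from −0.22 to 0.045. The log2 difference in the Hadha to Hadhb ratio ran from 0.06 to 0.16 with a mouse left out, and was 0.10 per base of gene length and with the deposited normalized values.

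The labels do not say whether replicate numbers pair the mice, and the correlations cannot settle it with so few mice. Same-numbered mice had correlations of deviations of 0.203, −0.01 and −0.03, the first being the highest of all pairs of a HET and a WT mouse. Only mouse 1 of both genotypes correlated best with its own number. The fit with the replicate block called 0 members, with a median of −0.10, and 116 genes in all against 22. The ratio gave 0.10 with the replicate block, with an exact p of 0.250, the smallest it allows. Cpt1b had the fewest reads of the members, at 552 to 919 per library, with most of its exonic bases shared with Chkb.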
